A study of Mus musculus with 9 samples.

Results

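The 9 genes described here are the alpha chains Lama3, Lama4 and Lama5, the beta chains Lamb1, Lamb2 and Lamb3, the gamma chain Lamc1 and the nidogens Nid1 and Nid2. They were taken by symbol from 55335 gene identifiers, and all 9 were found. Counts came from RNA of D2A1-d, a mouse breast carcinoma line kept in medium with serum. The groups were cells with a short hairpin RNA against the Mediator subunit Med4, called shMed4 #4 or shMed4 #1, and cells with a non-targeting control hairpin (NTC), with 3 libraries each. The knockdown groups are labelled as Med4 knockdown and NTC as wild type. The hairpins were delivered by transduction, and no group received another treatment. The labels number the libraries as biological replicates but do not say what was done separately for each, so the p-values speak only of the spread among them, which may be technical.

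Laminins are the cross-shaped proteins that start a basement membrane, and nidogens are the glycoproteins that tie the laminin sheet to the sheet of type IV collagen. Each laminin is a trimer of an alpha, a beta and a gamma chain, assembled inside the cell before secretion. The alpha chain carries the globular end that integrins and dystroglycan bind, and the gamma chain encoded by Lamc1 carries the loop that nidogens grip. Basement membrane laminin surrounds the mammary epithelium and is a substrate that disseminated breast carcinoma cells meet in other organs.

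Libraries held 7572114 to 8582235 reads assigned to genes. Med4 had 66, 60 and 50 reads with shMed4 #4, and 40, 35 and 38 with shMed4 #1, against 236, 216 and 204 in NTC, in the direction that the labels give. The mammary epithelial markers summed to 176 to 201 CPM with shMed4 #4 and 94.1 to 111 with shMed4 #1, against 23.6 to 25.04 in NTC (CPM give a count relative to the TMM-scaled total of its library). Of 10 such markers, Cdh1, Esrp1 and Cldn4 had 0 reads in all libraries, and the keratins Krt8 and Krt18 made up nearly the whole sum. Krt8 averaged 53.9 CPM with shMed4 #4 and 19.2 with shMed4 #1, against 3.93 in NTC, and Krt18 averaged 133, 80.8 and 20.4 CPM in the same order. The 8 mesenchymal markers summed to 1296 to 1368, 1635 to 1806 and 2181 to 2256 CPM in the same order, and none was at 0. Vim made up most of that sum, at 1101, 1501 and 1949.6 CPM, while Col1a1 of the same list was higher with the hairpins, at 51.5 and 46.4, against 15.5 CPM in NTC. The 4 smooth muscle and pericyte markers summed to 943 to 1107 and 691 to 730.5, against 199.5 to 219.9 CPM, with none at 0. Acta2 alone carried this sum, at 1003 and 708, against 212 CPM, and Myh11, Rgs5 and Cspg4 averaged at most 0.735 CPM in any group. Leukocyte (6 markers, Cd3e at 0), endothelial (6, with Cldn5 and Emcn at 0) and Schwann cell markers (3, none at 0) summed to at most 7.62, 3.93 and 3.07 CPM in any library. The part of these shifts in the laminin results was not tested. In bulk RNA, a change in the share of a cell state and a change in RNA per cell cannot be told apart.

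The loop of Lamc1 that nidogens bind is shown because Lamc1 was the member with the firmest change while its nidogen partners were barely read. It lies in exon 14 of 28 of the Lamc1 transcript, on the minus strand at chr1:153243334-153243408 in GRCm38. The stretch comes from the GENCODE M21 transcript, and the capitals mark the codons of the loop.
Lamc1: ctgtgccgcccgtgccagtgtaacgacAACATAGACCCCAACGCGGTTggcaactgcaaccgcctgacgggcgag
A search for exactly the same residues gave 0 matches in the annotated Lamc3 transcripts and 0 in another, shorter Lamc1 transcript of 1447 bases. It finds identical residues only, so it does not show which chains bind nidogens.

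Promoter windows from the RefSeq table (GRCm38.p6), ending at the RefSeq start of the gene, were used for 4 of the 9 members, namely Lama5, Lamb1, Lamb2 and Nid1. Lama5 and Lamb1 are shown as the most abundant alpha and beta chains, and Nid1 as a gene with hardly any reads. Each stretch runs 5′ to 3′ on the gene's strand up to the earlier of the RefSeq and GENCODE starts, and capitals mark matches to the GC box (GGGCGG) or the CCAAT box (CCAAT) on either strand. The places are chr2:180225860-180226109 on the minus strand for Lama5, chr12:31265043-31265233 on the plus strand for Lamb1 and chr13:13437352-13437550 on the plus strand for Nid1.
Lama5: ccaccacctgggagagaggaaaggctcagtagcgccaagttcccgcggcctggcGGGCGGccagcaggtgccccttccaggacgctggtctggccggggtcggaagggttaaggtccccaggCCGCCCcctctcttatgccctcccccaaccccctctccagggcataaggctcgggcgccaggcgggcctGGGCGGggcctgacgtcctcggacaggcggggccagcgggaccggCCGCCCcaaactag
Lamb1: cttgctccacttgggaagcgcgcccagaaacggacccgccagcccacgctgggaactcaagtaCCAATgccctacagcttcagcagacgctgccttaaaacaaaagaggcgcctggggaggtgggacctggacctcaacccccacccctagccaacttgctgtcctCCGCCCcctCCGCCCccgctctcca
Nid1: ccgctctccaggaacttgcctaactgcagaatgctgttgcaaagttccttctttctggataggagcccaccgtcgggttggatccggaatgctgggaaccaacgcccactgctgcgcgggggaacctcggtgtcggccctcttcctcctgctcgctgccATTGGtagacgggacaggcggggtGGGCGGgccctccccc
In the 250 bases before the RefSeq start, Lama5 held 4 GC boxes, Lamb1 held 2 with 1 CCAAT box, and Nid1 held 1 of each. Lamb2 held neither. Among all 32851 windows of this length, 32.7% held a GC box and 33.8% a CCAAT box. The AP-1 motif (TGANTCA), the E-box (CACGTG) and the TATA box (TATAAA) were in none of these 4 member windows and in 6.75%, 6.02% and 12.4% of all windows. The GC content of the window was 72.4% for Lama5, 64.4% for Nid1, 62.0% for Lamb1 and 43.6% for Lamb2, against a median of 52.4%.

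In D2A1-d cells Lama5, Lamb1 and Lamc1 were the alpha, beta and gamma chains with the most reads in every group. The plot of reads by chain shows a second tier of Lamb2 and Lamb3, a few reads of Lama3, and next to nothing below that. Lama4, an alpha chain of vessel and mesenchymal laminins, had 0 reads in all 9 libraries. A count of 0 among 73489209 gene reads allows up to 3 reads, or 0.0408 CPM, and this limit covers counting error only. Nid1 had 1, 2 and 2 reads with shMed4 #4 and 1, 1 and 1 with shMed4 #1, against 0, 1 and 1 in NTC. Nid2 had 0, 1 and 3 reads with shMed4 #4 and 3, 2 and 0 with shMed4 #1, against 1, 0 and 1 in NTC. Every library was thus at or under 3 reads for both nidogens, so no fold change is given and a difference was not detectable at this depth. Nid2 shares 8.45% of its exon sequence with Rtraf on the other strand, a gene with 13563 reads over all libraries.

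**Figure D1:**
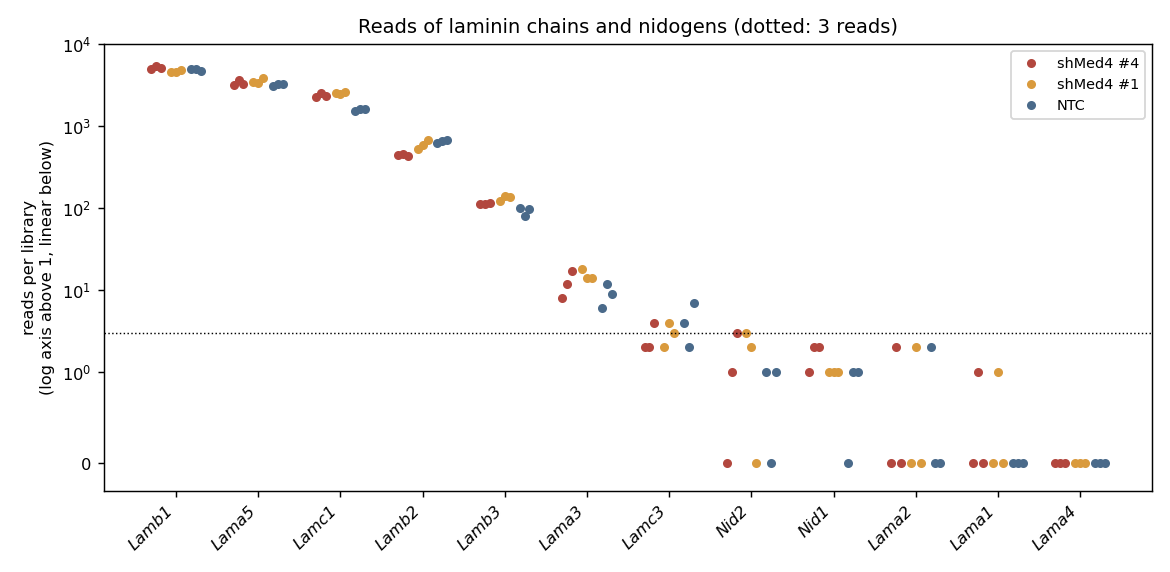
Reads per library (log axis above 1, linear below) of the 9 members and of Lama1, Lama2 and Lamc3, with 3 libraries each of shMed4 #4, shMed4 #1 and NTC. Lamb1, Lama5 and Lamc1 lie at 1507 reads or more in every library, whereas both nidogens lie at or under 3 and Lama4 at 0.

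Of the 9 members, 6 passed the filter on low counts and were tested, and Lama4, Nid1 and Nid2 were not. Lama3 passed because 2 shMed4 #4, 3 shMed4 #1 and 1 NTC library exceeded the minimum of 1.21 CPM. The other 5 exceeded it in all libraries. No tested member shares exon sequence with another gene except Lama3, for 1.83% with an antisense gene that had 1 read. Among chains that are not members, Lama1 had 2 reads over all libraries, Lama2 had 6 and Lamc3 had 30.

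With shMed4 #4 against NTC, 1 of the 6 tested members was higher (Lamc1) and 1 lower (Lamb2) at an edgeR adjusted p under 0.05. Of all 14335 genes tested, 55.1% passed, 27.8% higher and 27.3% lower. With shMed4 #1 against NTC, 2 were higher (Lamc1 and Lamb3) and 1 lower (Lamb2), beside 41.6% of all genes, 21.8% higher and 19.8% lower. With both hairpins averaged, the same 3 members passed in the same directions, beside 53.3% of all genes, 26.8% higher and 26.5% lower. Lamc1 was higher and Lamb2 lower with each hairpin, as were 17.4% and 15.8% of all genes, 33.3% in sum. Shares of 33.3% and 50.0% of the members are near these backgrounds, so the counts are no result about the family. Both comparisons use the same NTC libraries.

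**Figure D2:**
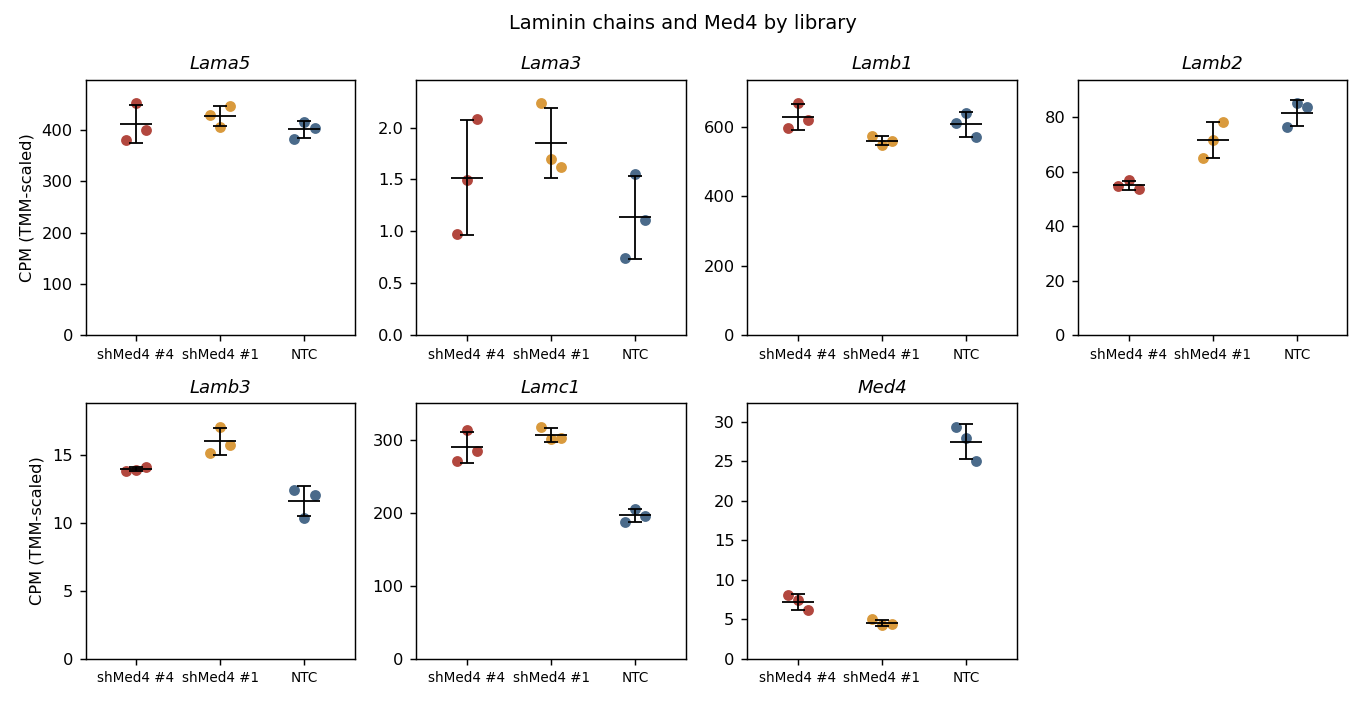
TMM-scaled CPM of the 6 tested members and of Med4 in each library, from left to right shMed4 #4, shMed4 #1 and NTC, with mean and SD (n = 3). Lamc1 lies at 272 to 318 CPM in the 6 hairpin libraries and at 187 to 206 in NTC, and Lamb2 is lowest with shMed4 #4.

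Lamc1 (ENSMUSG00000026478.14, chromosome 1, 153218922 to 153332786, minus strand) encodes the gamma chain shared by most laminins. It stood at 272, 313 and 285 CPM with shMed4 #4 and at 318, 301 and 302 with shMed4 #1, against 187, 206 and 196 in NTC. All 6 hairpin libraries were above all 3 NTC libraries, a separation that 37.8% of tested genes showed in either direction. The means were 289.8 ± 21.3 CPM with shMed4 #4, 307 ± 9.67 with shMed4 #1 and 197 ± 9.23 in NTC (SD, n = 3 each). Lamc1 rose 1.47-fold with shMed4 #4, or 0.56 on the log2 scale (SE 0.05, 95% interval 0.45 to 0.67, edgeR adjusted p = 4.49e-11). With shMed4 #1 it rose 1.56-fold, or 0.64 on the log2 scale (SE 0.05, 95% interval 0.53 to 0.76, edgeR adjusted p = 2.48e-12). The tested genes around it had median log2 fold changes of 0.04 with shMed4 #4 and 0.02 with shMed4 #1. Changes of such size were common, as 24.6% and 12.8% of tested genes moved further with shMed4 #4 and shMed4 #1. The hairpins did not differ past the threshold (log2 difference -0.08, 95% interval -0.19 to 0.02, edgeR adjusted p = 0.253). With the median of neighbouring genes subtracted as a fixed value, this difference was -0.14 and passed (adjusted p = 0.0491 by a t statistic with the edgeR SE, range over alternatives 0.0491 to 0.733). That p-value leaves out the spread of the neighbours.

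Among the beta chains, Lamb2 fell, most with shMed4 #4, while the abundant Lamb1 did not pass against NTC. Lamb2 (ENSMUSG00000052911.9, chromosome 9, 108479736 to 108490530) encodes the beta chain typical of synaptic, muscle and kidney basement membranes. It stood at 54.6, 56.9 and 53.6 CPM with shMed4 #4 and at 65.1, 71.7 and 78.3 with shMed4 #1, against 76.2, 85.2 and 83.6 in NTC. The shMed4 #4 libraries lay below all others, whereas 1 shMed4 #1 library was within the NTC range. Groups did not overlap for 59.6% of tested genes with shMed4 #4 against NTC, and for 49.1% with shMed4 #1. Lamb2 fell with shMed4 #4, with a log2 fold change of -0.57 (SE 0.07, 95% interval -0.71 to -0.43, edgeR adjusted p = 7.65e-09). With shMed4 #1 the value was -0.19 (SE 0.07, 95% interval -0.32 to -0.05, edgeR adjusted p = 0.0236), a call lost without any of 4 single libraries. Without shMed4 #1 replicate 1, shMed4 #1 replicate 2, NTC replicate 2 or NTC replicate 3 the edgeR adjusted p was 0.177, 0.0539, 0.112 or 0.0727. It was 0.0622 by DESeq2, and over all alternatives it ranged from 0.000222 to 0.177. The log2 value with shMed4 #1 ranged from -0.32 to -0.12 over the alternatives. The tested genes around Lamb2 had median log2 fold changes of 0.11 with shMed4 #4 and 0.13 with shMed4 #1.

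Directly compared, shMed4 #4 libraries held less Lamb2 than shMed4 #1 libraries (log2 difference -0.38, SE 0.07, edgeR adjusted p = 5.19e-05). Between the hairpins 1 member was higher (Lamb1) and 1 lower (Lamb2), where 28.0% of all genes tested passed, 14.2% higher and 13.9% lower.

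Lamb1 (ENSMUSG00000002900.16, chromosome 12, 31265234 to 31329644), the beta chain of most embryonic and epithelial laminins, had the highest CPM of the family. It stood at 597, 668 and 619 CPM with shMed4 #4 and at 574, 547 and 559 with shMed4 #1, against 609.7, 641 and 569.6 in NTC. The hairpin groups lay on either side of the NTC mean. With shMed4 #4 the log2 fold change was 0.05 (SE 0.05, 95% interval -0.05 to 0.15, edgeR adjusted p = 0.427). With shMed4 #1 it was -0.12 (SE 0.05, 95% interval -0.22 to -0.01, edgeR adjusted p = 0.0703). This passed with upper-quartile scaling or without NTC replicate 3 (adjusted p = 0.0212 each) and without shMed4 #1 replicate 1 (0.0486), in a range of 0.0212 to 0.847 over all alternatives. Lamb1 was higher in shMed4 #4 than in shMed4 #1 libraries (0.17 on the log2 scale, SE 0.05, edgeR adjusted p = 0.0139), and the groups did not overlap, as for 40.2% of all tested genes. This difference rests on single libraries, with an edgeR adjusted p of 0.0544 without shMed4 #1 replicate 2 and 0.114 without shMed4 #4 replicate 2 (range over alternatives 4.46e-06 to 0.114).

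Lamb3 (ENSMUSG00000026639.18, chromosome 1, 193207699 to 193343878) encodes the beta chain that joins Lama3 in the laminin of epithelial hemidesmosomes. It stood at 13.8, 13.9 and 14.1 CPM with shMed4 #4 and at 15.2, 17.1 and 15.7 with shMed4 #1, against 12.4, 10.3 and 12.03 in NTC. All 6 hairpin libraries lay above all NTC libraries, a separation seen for 37.8% of tested genes. With shMed4 #4 its value did not pass (0.26 on the log2 scale, SE 0.12, edgeR adjusted p = 0.0730). With the median of its neighbours subtracted as a fixed value it was 0.34 and passed (adjusted p = 0.0230 by a t statistic with the edgeR SE, range over alternatives 0.0230 to 0.263). That p-value leaves out the spread of the neighbours. Lamb3 rose with shMed4 #1 by 0.46 (SE 0.12, edgeR adjusted p = 0.00219). The average passed at 0.36 (SE 0.11, edgeR adjusted p = 0.00472), though not without NTC replicate 2 (edgeR adjusted p = 0.0521, range over alternatives 0.00128 to 0.0521). The difference between the hairpins did not pass (-0.20, SE 0.12, edgeR adjusted p = 0.212).

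**Figure D3:**
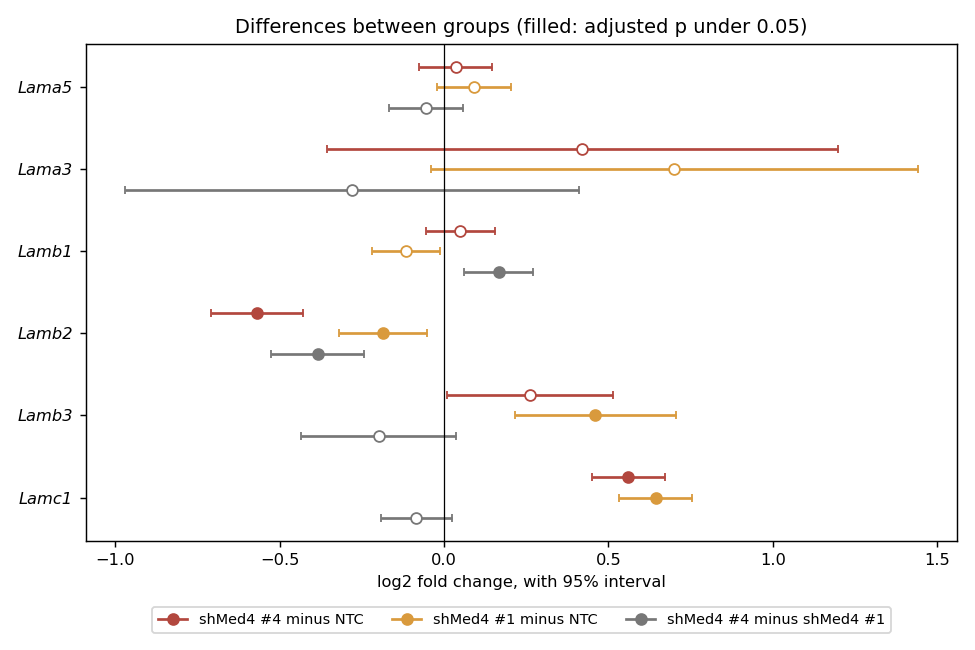
Log2 fold changes with 95% intervals for the 6 tested members, for shMed4 #4 minus NTC, shMed4 #1 minus NTC and shMed4 #4 minus shMed4 #1. Filled points passed an edgeR adjusted p of 0.05. Lamc1 lies right of 0 with both hairpins, Lamb2 lies left, and the intervals of Lama5 span 0 in all 3 comparisons.

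No alpha chain passed unless the median of neighbouring genes was subtracted as a fixed value. Lama5 (ENSMUSG00000015647.9, chromosome 2, 180176373 to 180225859, minus strand), the main alpha chain of epithelial basement membranes, stood at 382, 453 and 399.9 CPM with shMed4 #4. It stood at 429, 406 and 447 CPM with shMed4 #1, against 383, 417 and 405 in NTC. The ranges of all 3 groups overlapped. Its log2 fold change was 0.03 with shMed4 #4 (SE 0.06, 95% interval -0.08 to 0.15, edgeR adjusted p = 0.619) and 0.09 with shMed4 #1 (SE 0.06, 95% interval -0.02 to 0.20, edgeR adjusted p = 0.197). The first of these turned to -0.01 with upper-quartile scaling and -0.03 without shMed4 #4 replicate 2. Lama3 (ENSMUSG00000024421.16, chromosome 18, 12333819 to 12583013), the alpha chain of the hemidesmosomal laminin, had 8, 12 and 17 reads with shMed4 #4 and 18, 14 and 14 with shMed4 #1, against 6, 12 and 9 in NTC. Its intervals were wide, from -0.36 to 1.20 on the log2 scale with shMed4 #4 and from -0.04 to 1.44 with shMed4 #1 (edgeR adjusted p = 0.366 and 0.125).

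Lama5 and Lamb1 lie where neighbouring genes were lower. The median log2 fold change of the 25 tested genes on each side was -0.30 around Lama5 and -0.24 around Lamb1 with shMed4 #4, and -0.17 and -0.10 with shMed4 #1. P-values relative to neighbours come from a t statistic that subtracts this median as a fixed value and keeps the gene's own edgeR SE. They leave out the spread of the neighbours, so they do not test a difference from them. Relative to these neighbours, Lama5 was higher by 0.33 with shMed4 #4 (adjusted p = 4.12e-06) and by 0.26 with shMed4 #1 (adjusted p = 0.000281). Over all alternatives the adjusted p of Lama5 ranged from 4.12e-06 to 0.973 with shMed4 #4 and from 0.000281 to 0.508 with shMed4 #1. Relative to its neighbours Lamb1 was higher by 0.29 with shMed4 #4 (adjusted p = 1.38e-05, range over alternatives 1.38e-05 to 0.943). With shMed4 #1 the value of Lamb1 relative to its neighbours was -0.02 (adjusted p = 0.847, range over alternatives 0.0212 to 0.847).

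Levels per length put the chains on a common scale, here CPM per kb of exon. Lamb1 was highest with 63.3 ± 3.71 with shMed4 #4 and 56.5 ± 1.32 with shMed4 #1, against 61.2 ± 3.59 in NTC (SD, n = 3 each). Lama5 followed with levels per kb of 36.1 ± 3.26 and 37.5 ± 1.79, against 35.3 ± 1.48. Lamc1 had levels per kb of 35.0 ± 2.57 with shMed4 #4 and 37.1 ± 1.17 with shMed4 #1, against 23.8 ± 1.12 in NTC. By merged exon length, in the hairpin libraries the ranges of Lama5 and Lamc1 overlapped, whereas every NTC library held less Lamc1 (22.7 to 24.9) than Lama5 (33.7 to 36.6) per kb. Lamb2 came next with 9.05 ± 0.276, 11.8 ± 1.09 and 13.4 ± 0.788 per kb in the same order of groups. Lamb3 followed with 2.11 ± 0.024, 2.42 ± 0.147 and 1.75 ± 0.169 per kb. Lama3 was at 0.141 ± 0.0516 and 0.172 ± 0.0313, against 0.105 ± 0.0375 per kb. Scaled by the longest transcript, Lamb1 reached 108.6 ± 6.35, 96.8 ± 2.27 and 105 ± 6.15 per kb, since its merged exons measure 9917 bases and its longest transcript 5784, so the distance of Lamb1 from the other chains depends on the length taken. So does the order of Lamc1 and Lama5, as Lamc1 by longest transcript was at 38.0 with shMed4 #4 and 40.3 with shMed4 #1, against 25.8 per kb in NTC, and its shMed4 #1 range (39.5 to 41.8) then lay above that of Lama5 (35.7 to 39.3).

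The alpha, beta and nidogen sums did not pass between the hairpin libraries and NTC (two-sided exact permutation test of 6 against 3 libraries, whose smallest p is 0.0238). This test pools both hairpins as if they were replicates of a single condition. A difference between the hairpins therefore counts as spread among the pooled libraries, and the p-values do not speak of each hairpin. Adjusted p-values were taken over 10 class values, of which 8 are given. With so few libraries, fewer than 5 of the 10 could not pass 0.05 after adjustment, whatever their values, so missing it says little here. For each hairpin alone, 3 against 3 cannot go below 0.1. The alpha sum was 36.3 ± 3.28 and 37.7 ± 1.78, against 35.4 ± 1.51 per kb (exact permutation p = 0.357, adjusted p = 0.397). The beta sum was 74.5 ± 3.94 and 70.7 ± 1.02, against 76.4 ± 3.61 per kb (exact permutation p = 0.190, adjusted p = 0.317). The nidogen sum was at most 0.106 per kb in any library (exact permutation p = 0.238, adjusted p = 0.327).

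The Lamc1 level per kb was 0.470 ± 0.00958 of the beta sum with shMed4 #4 and 0.526 ± 0.0165 with shMed4 #1, against 0.311 ± 0.0132 in NTC. This ratio was computed after the values were seen and was not tested. With longest transcript lengths it was 0.313 ± 0.00585 and 0.357 ± 0.0091, against 0.212 ± 0.0100. Within the beta class, Lamb2 made up 12.2 ± 0.4% with shMed4 #4 and 16.7 ± 1.46% with shMed4 #1, against 17.6 ± 1.16% in NTC (exact permutation p = 0.119, adjusted p = 0.298). Lamb1 made up 85.0 ± 0.512%, 79.9 ± 1.56% and 80.1 ± 1.23% (exact permutation p = 0.262, adjusted p = 0.327). Lamb3 made up 2.83 ± 0.144% and 3.42 ± 0.251%, against 2.31 ± 0.31%, higher in 6 of 6 hairpin libraries (exact permutation p = 0.0238, adjusted p = 0.119). Lama5 made up 99.6% and 99.5%, against 99.7% of the alpha class (exact permutation p = 0.119, adjusted p = 0.298), and Lama3 the rest but for traces (exact permutation p = 0.167, adjusted p = 0.317).

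**Figure D4:**
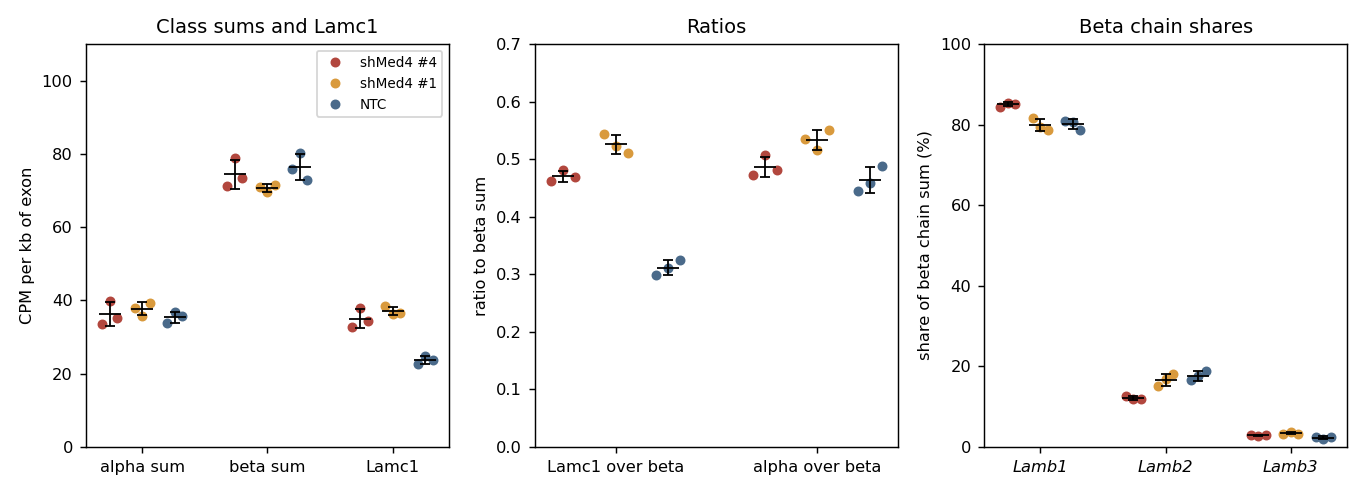
Left, sums of CPM per kb of exon over the alpha and over the beta chains, and the level of Lamc1, in each library. Middle, Lamc1 and the alpha sum as a ratio to the beta sum; right, shares of Lamb1, Lamb2 and Lamb3 in the beta sum, with mean and SD (n = 3) for shMed4 #4, shMed4 #1 and NTC from left to right. Lamc1 is at 32.9 to 38.5 per kb in the hairpin libraries and at 22.7 to 24.9 in NTC.

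The genes whose pattern over the 9 libraries was nearest to Lamc1, by root mean square difference of centred log2 CPM among 9985 named protein-coding genes, were Rell1 (0.0591) and Egr2 (0.0620). For Lamb2 they were Nek9 (0.0533) and Ppm1f (0.0583). No other member passed with both hairpins.

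Of 16 laminin receptor genes, 13 were tested. For the average of both hairpins 5 passed higher and 5 lower, or 76.9% beside 53.3% of all genes, with a median of -0.01 on the log2 scale, as over all genes. Sdc1, a heparan sulfate proteoglycan that binds laminin, rose by 0.59 (SE 0.05, edgeR adjusted p = 1.53e-13). The integrin chains Itgb1 and Itga6, which pair as a laminin receptor, rose by 0.80 and 1.01. The tested genes around them had median log2 fold changes of 0.29 and -0.13. Itga3, the integrin alpha chain of the list with the highest CPM, was lower, at -0.18 for the average (SE 0.04, edgeR adjusted p = 0.000904). It was at 0.003 with shMed4 #4 and -0.36 with shMed4 #1. Itga1, a collagen and laminin receptor chain, fell by 0.62 on the log2 scale.

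Of 21 other basement membrane genes, 13 were tested. For the average 5 passed higher and 5 lower (76.9%, median 0.04 on the log2 scale), beside 53.3% of all genes. The counts differed by hairpin. With shMed4 #4, 3 were higher and 5 lower (61.5%, median -0.19), beside 55.1% of all genes. With shMed4 #1, 7 were higher and 3 lower (76.9%, median 0.24), beside 41.6% of all genes. Between the hairpins 10 of the 13 passed (76.9%), beside 28.0% of all genes. The matrix linkers Fbln2 and Fbln1 rose by 0.71 and 0.92. Col4a1 and Col4a2, the chains of the collagen sheet that nidogens join to laminin, had log2 fold changes of -2.43 and -2.28. Col4a1 stood at 71.7 ± 4.48 CPM with shMed4 #4 and 165 ± 3.03 with shMed4 #1, against 585 ± 6.36 in NTC (SD, n = 3 each).

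Of 18 genes listed for laminin or nidogen processing or cleavage, activators of proteases included, 12 were tested. For the average of both hairpins 8 passed higher and 3 lower (91.7%, median 0.32 on the log2 scale). Of all genes tested, 53.3% passed, 26.8% higher and 26.5% lower. Plat and Plau, the plasminogen activators, rose by 1.34 and 1.13. Mmp2, a gelatinase, rose by 3.10 and was at 5.21 ± 1.05 CPM with shMed4 #4 and 2.64 ± 0.583 with shMed4 #1, against 0.418 ± 0.0697 in NTC. No NTC library reached the filter minimum of 1.21 CPM for Mmp2, so it was tested only because the hairpin libraries exceeded it. Its fold change rests on a few NTC reads, and its place among the genes that passed higher rests on that filter. Mmp3, stromelysin, fell by 1.78 on the log2 scale.

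Of 15 chaperone and glycosylation genes, 14 matched a symbol and 13 were tested. For the average 8 passed higher and 1 lower (69.2%, median 0.19 on the log2 scale), beside 53.3% of all genes. Pdia4, Hspa5, Hsp90b1 and Pdia6, which fold secreted proteins in the endoplasmic reticulum, rose by 0.85, 0.45, 0.41 and 0.22. Of 14 genes of the dystroglycan complex and its linkers, 8 were tested. For the average 4 passed higher and 2 lower (75.0%, median 0.11 on the log2 scale), again beside 53.3% of all genes. The dystrobrevin Dtna and the sarcoglycan Sgcb rose by 1.67 and 0.51, and the syntrophin Sntb2 fell by 0.78. The tested genes around Dtna, Sgcb and Sntb2 had median log2 fold changes of -0.03, 0.17 and -0.34. Each named gene of these lists passed an edgeR adjusted p of 0.05 for the average. Apart from Itga3 they were picked by small adjusted p in these same data, so their passing is no further result. The lists were described by counts with no test of the list.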

How the data were processed

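Per the submitters' processing notes, reads were aligned with STAR and counted with HTSeq on mm10 (GRCm38), and the sources used here give no version, annotation release or strand setting. Per the labels' protocols, total RNA came from an automated kit and libraries ran on the BGISEQ-500 platform. Each deposited file lists raw read counts for 1 library. The 5 summary lines of each file were left out. They show that 49.5 to 51.6% of records fell in no gene and 10.5 to 11.6% aligned to several places. Of 55335 identifiers, 55154 matched a symbol. Coordinates and exon lengths are from GENCODE M21 (GRCm38), in which 54587 identifiers carry the same version.

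Counts were fitted in edgeR 4.0.16 (R 4.3.3) by quasi-likelihood with TMM factors (0.969 to 1.03) and the 3 groups in 1 model. filterByExpr with a minimum count of 10 left 14335 genes. Benjamini-Hochberg adjusted p under 0.05 over all of them was the threshold. The SE is the log2 fold change over the square root of F. Class values were tested by exact permutation over libraries, with both hairpins pooled, in SciPy 1.17.1. The edgeR step was tested on simulated counts with known changes. Libraries within a group differed by more than sampling noise (ratios of chi-square to its degrees of freedom were 1.53 to 2.95), so none was merged as a repeat of another. This does not show that they are independent.

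The members, gene lists, motifs and tests were chosen with earlier results of these data known. Named genes are the members, Med4, the other laminin chains, up to 4 genes per list with the smallest averaged adjusted p, and for members past the threshold with both hairpins the 2 genes nearest in pattern. Some results that this rule names, and class values resting on them, are not reported here. Rtraf and Itga3 were named after their values were seen. Alternatives were DESeq2 1.42.0, its size factors, upper-quartile factors, limma-voom (limma 3.58.1), other filters, fits of only the libraries compared, the replicate number as a block, local chromosomal shifts and leaving out each library. For the local shift, the median of 25 tested genes on each side was subtracted as a fixed value and the gene's SE was kept. Alternatives for the lists were added after seeing the data.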

Additional observations from a re-analysis of the deposited data

Results flagged for a closer look

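The direct comparison of the hairpins was shMed4 #4 minus shMed4 #1, at an edgeR adjusted p under 0.05. It found a different effect size for 2 of the 6 tested members, for Med4 and for 13 of the list genes named by the rule above. Of all genes tested, 28.0% passed in this comparison. The list genes named by that rule were picked by small adjusted p for the average in these same data, so their count is no result about the lists. Lamb2 differed by a log2 value of -0.38 (SE 0.07, adjusted p = 5.19e-05), lower in 3 of 3 shMed4 #4 libraries. Lamb1 differed by 0.17 (SE 0.05, adjusted p = 0.0139), higher in 3 of 3, at levels near those of NTC with both hairpins. Med4 itself differed by 0.67 (SE 0.18, adjusted p = 0.00401), so the weaker knockdown was in the group with less Lamb2. The part of the residual Med4 level in these differences was not tested. Among the basement membrane genes the log2 difference was -1.20 for Col4a1, -1.40 for Col4a2, 0.56 for Fbln1 and 0.40 for Fbln2. It was -0.65 for Itga1 and 0.15 for Itgb1 among the receptors, and 0.59 for Plau, -0.48 for Plat and 0.97 for Mmp2 among the proteases. Pdia4 differed by 0.41, Hspa5 by 0.32, Hsp90b1 by 0.25 and Sntb2 by -0.31. Groups of 3 libraries are too small for a check of outlying libraries.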

How the results depend on the processing

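The rises of Lamc1 with each hairpin and the fall of Lamb2 with shMed4 #4 kept their direction and side of the threshold under all 18 alternatives each. Lamc1 ranged from 0.51 to 0.61 with shMed4 #4 and from 0.61 to 0.68 with shMed4 #1, and Lamb2 from -0.68 to -0.54 with shMed4 #4. Lama5 with shMed4 #4 was -0.00998 under upper-quartile factors and -0.0313 to 0.0952 when 1 library was left out, and its difference between the hairpins was then -0.12 to 0.0035. Lamb1 for the averaged hairpins was -0.03 in the main fit (edgeR adjusted p = 0.561). With the local chromosomal shift removed it changed sign to 0.17 and passed (adjusted p = 0.00153 by a t statistic with the edgeR SE). That p-value leaves out the spread of the neighbours, and the range over alternatives was 0.00153 to 0.913. The Lamb1 value was -0.0764 to 0.00816 when 1 library was left out. The count of members that differed between the hairpins was 1 to 2 in those fits, with Lamb1 lost. The cause was not tested. Libraries of equal replicate number were no more alike than others by correlations of their deviations. These were -0.0586 to 0.0352 for equal and -0.0747 to 0.0648 for unequal numbers. The correlations do not show whether libraries of equal number were handled together. With the replicate block, 2 members passed with shMed4 #4, 3 with shMed4 #1, 3 for the average and 2 between the hairpins, of 7807, 5828, 7537 and 3859 genes. Without 1 NTC library the exact permutation test cannot go below 0.0714, and without 1 hairpin library not below 0.0357. Depth limits Lama3, Lama4 and the nidogens.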
